A study of Mus musculus with 15 samples.

Results

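The 8 genes described here, *Scd1*, *Scd3*, *Elovl3*, *Awat1*, *Awat2*, *Far2*, *Soat1* and *Mc5r*, serve lipid synthesis in the sebaceous gland or its control. They were taken by symbol from the deposited count table, which holds 55487 genes. Each symbol matched 1 row, and all 8 passed the filter on low counts in each comparison. RNA was extracted from skin of 3-week-old C57BL/6 mice. There were 5 libraries from WT mice, 5 from non-lesional and 5 from lesional skin of mice labelled OTULIN-KO, an epidermis-specific knockout. The study's methods describe the OTULIN-KO mice as *Otulin* fl/fl mice with K14-Cre, so that Cre is driven by the keratin 14 promoter, and the WT mice as littermates with the loxP-flanked alleles but without Cre. Sebocytes arise from keratin 14-positive progenitors, but the deletion was not measured in the sebaceous gland, and the samples hold every cell type of the skin. The study describes the profiles of a group as those of separate mice, but it is not stated whether a mouse gave both a lesional and a non-lesional sample.

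The sebaceous gland opens into the hair follicle and secretes sebum, which coats hair and epidermis. Its cells fill with lipid droplets as they mature and then burst, so that the whole cell becomes the secretion. Mouse sebum is rich in wax esters, diesters and sterol esters. SCD1 and SCD3 are stearoyl-CoA desaturases, which place the first double bond in saturated fatty acyl chains, and loss of SCD1 causes wasting of the gland in asebia mice. ELOVL3 lengthens saturated and monounsaturated acyl chains. FAR2 reduces acyl-CoA to fatty alcohol, and AWAT1 and AWAT2 join such alcohols with acyl-CoA into wax esters. SOAT1 esterifies cholesterol. MC5R is a melanocortin receptor through which melanocortin peptides promote sebum secretion.

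Positions are from GENCODE M21 on GRCm38. *Scd1* (ENSMUSG00000037071) lies on the minus strand of chromosome 19 from 44394455 to 44407879, and *Scd3* (ENSMUSG00000025202) on the plus strand of the same chromosome from 44203269 to 44244016, with *Scd2* and *Scd4* between them. *Elovl3* (ENSMUSG00000038754) is on the plus strand of chromosome 19 from 46131897 to 46135694. *Awat2* (ENSMUSG00000031220, X: 100402221 to 100442717, minus strand) and *Awat1* (ENSMUSG00000015665, X: 100572251 to 100578205, plus strand) are separated by the related acyltransferase gene *Dgat2l6*. *Far2* (ENSMUSG00000030303) runs on the plus strand of chromosome 6 from 148047259 to 148182758. *Soat1* (ENSMUSG00000026600) occupies the minus strand of chromosome 1 from 156424525 to 156474331. *Mc5r* (ENSMUSG00000007480) lies on the plus strand of chromosome 18 from 68337596 to 68342446.

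Short reads from stretches shared by *Scd1* and *Scd3* could not be assigned by sequence alone, but the reads and their lengths were not examined here. Of 3512 distinct stretches of 35 bases in *Scd3* transcripts, 253 also occur in *Scd1* transcripts, and 35 do so within the last 500 bases of both, where QuantSeq reads begin. A length of 35 bases was the shortest read the authors kept, and they dropped matches of low mapping quality. *Awat1* and *Awat2* transcripts shared 0 such stretches, as did *Far2* with *Far1* and *Soat1* with *Soat2*. Exons of *Elovl3* overlap those of *Pitx3* on the opposite strand, but *Pitx3* had only 0 to 5 counts per library. Exons of *Far2* overlap *Ergic2* and *Far2os2* on the opposite strand. *Ergic2* had 194 to 321 counts per library. The counting command in the methods sets no strand option, which by default counts both strands, so reads of *Far2* and *Ergic2* cannot be told apart where they overlap.

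RefSeq start sites on GRCm38.p6 were available here for *Scd3*, *Awat1*, *Awat2*, *Far2* and *Soat1*. The 250 bases before the start are shown 5′ to 3′ on the strand of the gene for the desaturase gene with the widest range among libraries, for both wax ester synthases and for the sterol ester synthase, whose correlations are given with the other pairs. Capitals mark matches, on either strand, to the 5 motifs searched, which were the TATA box TATAAA, the CCAAT box, the nuclear receptor motif AGGTCA, the AP-1 motif TGANTCA and the sterol regulatory element TCACNCCAC. No match overlapped another.
*Scd3* promoter (chr19:44203038-44203287, plus strand): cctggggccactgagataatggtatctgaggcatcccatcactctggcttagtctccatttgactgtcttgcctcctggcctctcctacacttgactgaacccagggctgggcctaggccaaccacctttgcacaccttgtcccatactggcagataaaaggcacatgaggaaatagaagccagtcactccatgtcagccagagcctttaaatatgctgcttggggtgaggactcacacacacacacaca
*Awat1* promoter (chrX:100571997-100572246, plus strand): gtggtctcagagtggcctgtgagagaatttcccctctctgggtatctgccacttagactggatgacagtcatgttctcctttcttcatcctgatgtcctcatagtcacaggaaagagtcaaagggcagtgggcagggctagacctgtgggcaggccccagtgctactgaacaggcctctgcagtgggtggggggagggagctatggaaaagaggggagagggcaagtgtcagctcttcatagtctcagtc
*Awat2* promoter (chrX:100442718-100442967, minus strand): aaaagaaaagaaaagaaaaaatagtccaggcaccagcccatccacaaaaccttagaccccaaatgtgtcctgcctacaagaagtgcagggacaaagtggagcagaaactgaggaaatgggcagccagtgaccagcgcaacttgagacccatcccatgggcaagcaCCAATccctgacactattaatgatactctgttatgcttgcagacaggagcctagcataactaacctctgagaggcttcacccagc
*Soat1* promoter (chr1:156474329-156474578, minus strand): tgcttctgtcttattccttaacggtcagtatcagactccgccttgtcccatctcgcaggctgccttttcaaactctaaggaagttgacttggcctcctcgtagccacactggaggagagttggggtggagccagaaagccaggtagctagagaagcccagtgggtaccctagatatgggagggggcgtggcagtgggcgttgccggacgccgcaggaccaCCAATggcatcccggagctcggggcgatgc
The matches are to CCAAT, 85 bases before the *Awat2* start and 30 bases before the *Soat1* start, counted to the first base of the match. A second *Awat2* start had a CCAAT match 121 bases upstream, on the other strand. The *Scd3*, *Awat1* and *Far2* windows held no match to these letters. Of 32851 RefSeq windows of this length, 33.85% held CCAAT, 12.37% TATAAA, 14.02% AGGTCA, 6.75% TGANTCA and 1.05% TCACNCCAC.

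The libraries held 1962604 to 2567138 counts. Values are CPM, the counts scaled to a library of 1000000, with edgeR's TMM method over all 15 libraries. Intervals from counts are Poisson intervals, which cover counting error only and not variation between mice. Molecular identifiers were not used, so copies of a molecule may be counted more than once and the intervals may be too narrow. Genes of inflamed epidermis (*Krt6a*, *Krt6b*, *Krt16*, *S100a8*, *S100a9*, *Sprr1b* and *Sprr2d*) summed to 13034 CPM in lesional replicate 2 and 33477 CPM in lesional replicate 11. In the other 3 lesional libraries the same sum was 245 to 431 CPM, within or below the 278 to 1308 CPM of WT libraries. In lesional replicate 11 the sum of 9 skeletal muscle genes was 3725 CPM and that of 12 adipocyte genes 2177 CPM, each the lowest of all libraries. WT replicate 1 had 1405 CPM of hair follicle genes, against 62.6 to 187 CPM in the other 14 libraries. *Xist* was high and Y-linked counts were 0 to 2 in 1 library of each group, namely WT replicate 1, non-lesional replicate 12 and lesional replicate 11. The summed keratin and loricrin genes of epidermis were 7106 to 12992 CPM in every library. *Otulin* had 29 to 64 counts in WT, 50 to 69 in non-lesional and 37 to 64 in lesional libraries. Reads from transcript 3′ ends may lie outside the deleted part, so this level does not check the labels.

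The genes were compared between groups with edgeR's quasi-likelihood test over all genes that passed the filter, with Benjamini-Hochberg adjustment. An adjusted p under 0.05 was reached by 0 of the 8 in each of the 3 comparisons, against a background of 0% of all genes tested in each. With DESeq2's Wald test 0 of the 8 were called in each comparison, beside 1 (0.00368%), 14 (0.0519%) and 0 of all genes it tested. At an unadjusted p under 0.05, 0 of the 8 genes differed between non-lesional and WT skin, where 3.16% of all genes did (1.85% higher and 1.31% lower). Between lesional and WT skin 2 of the 8 did, where 4.81% of all genes did. These were *Elovl3*, 1 gene higher (background 3.24%), and *Mc5r*, 1 gene lower (background 1.56%). Between lesional and non-lesional skin 0 of the 8 did, where 4.22% of all genes did (2.89% higher and 1.33% lower). DESeq2 gave 0, 2 and 1 of the 8 genes at this level, beside 1.72%, 3.52% and 2.98% of all genes it tested. For 0 of the 8 genes did all libraries of 1 group lie above or below all libraries of another, beside 0.384% of all genes higher and 0.269% lower in non-lesional against WT, 0.449% and 0.248% in lesional against WT, and 0.280% and 0.326% in lesional against non-lesional skin. The median log2 fold change of the 8 genes was 0.16 in non-lesional against WT libraries, 0.01 in lesional against WT and -0.10 in lesional against non-lesional, where the medians of all genes tested were -0.003, -0.003 and 0.003. In bulk skin, changes in the number or size of sebaceous glands, in RNA per sebocyte and in other cells with these transcripts cannot be told apart.

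**Figure D1:**
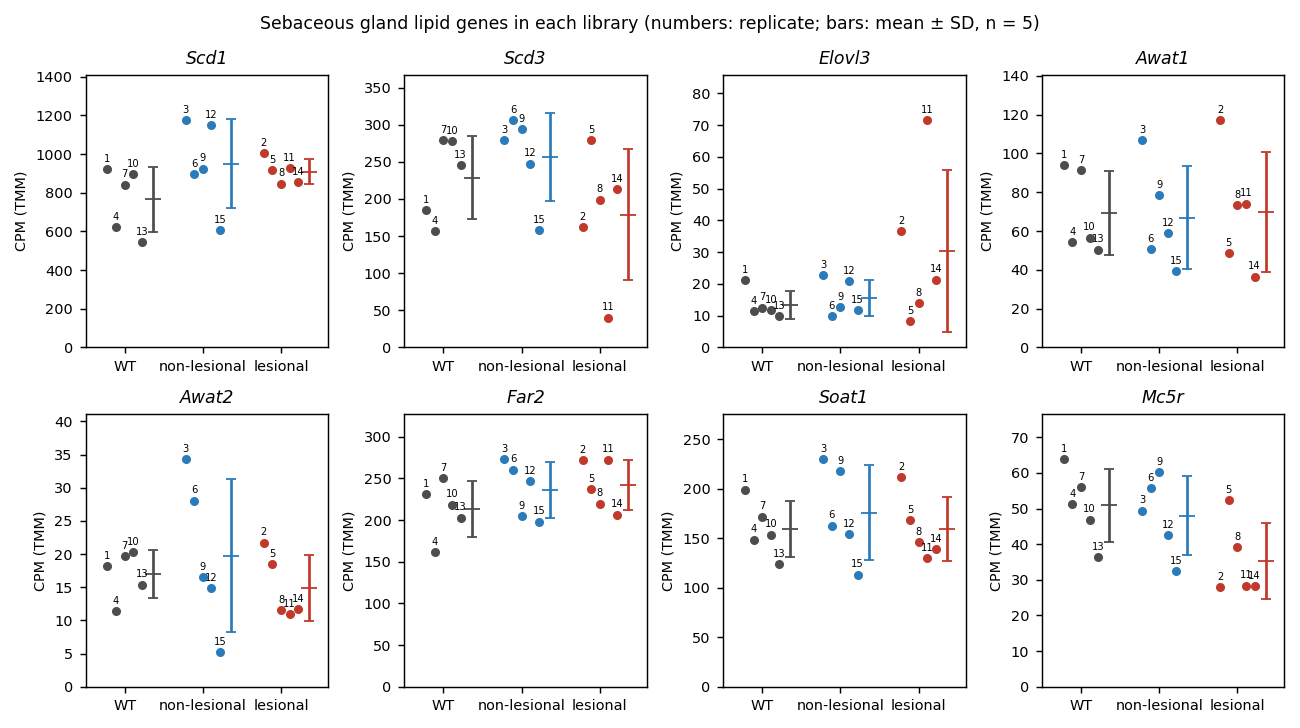
CPM of each of the 8 genes (vertical axes, linear from 0) in the 15 libraries, by group; points are libraries with their replicate numbers, and bars are the mean and SD of 5 libraries. Groups overlap for every gene; *Elovl3* was highest (71.6 CPM) and *Scd3* lowest (40.3 CPM) in lesional replicate 11.

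Among the desaturases, *Scd1* had 921, 624, 842, 897 and 547 CPM in WT replicates 1, 4, 7, 10 and 13. In non-lesional replicates 3, 6, 9, 12 and 15 it had 1176, 895, 924, 1149 and 605 CPM, and in lesional replicates 2, 5, 8, 11 and 14 it had 1003, 916, 847, 926 and 855 CPM. Lesional libraries fell in a narrow range for this gene, with a coefficient of variation of 6.95% against 22.1% in WT and 24.3% in non-lesional libraries. The order of the means was 766 ± 170 (WT), 909 ± 63 (lesional) and 950 ± 231 CPM (non-lesional; SD, n = 5 each), and neither neighbouring pair differed beyond its spread. Relative to WT, its log2 fold change (with the standard error, SE) was 0.31 (SE 0.18) for non-lesional skin and 0.25 (SE 0.17) for lesional skin. The edgeR quasi-likelihood test gave adjusted p-values of 1 and 0.926. Without non-lesional replicate 15, which had the lowest *Scd1* value of its group, the non-lesional change was 0.44 (unadjusted p = 0.0122, adjusted p = 1 from edgeR). Leaving out WT replicate 13 gave 0.21, and the unadjusted p was under 0.05 in 1 of the 10 edgeR fits without 1 library.

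*Scd3* had 184, 157, 279, 277 and 245 CPM in the WT replicates in the same order, and 279, 306, 294, 248 and 158 CPM in the non-lesional replicates. The lesional replicates had 162, 279, 199, 40.3 and 213 CPM. Lesional replicate 11, with 81 *Scd3* counts (95% Poisson interval 32.0 to 50.1 CPM), stood below all other libraries, the next lowest of which was WT replicate 4. The log2 fold change of lesional against WT was -0.36 (SE 0.38, adjusted p = 0.939 from edgeR) and became -0.099 without lesional replicate 11. Without lesional replicates 2 and 11, a choice made after seeing the data, it was 0.005. Against non-lesional libraries the lesional change was -0.52 (SE 0.39, adjusted p = 0.973 from edgeR), or -0.27 without lesional replicate 11.

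The ratio of the paralogs was lowest in lesional replicates 11 and 2. *Scd3* counts were 4.35% of *Scd1* counts in lesional replicate 11 and 16.1% in lesional replicate 2, while the share was 20.03% to 44.8% in WT, 21.6% to 34.2% in non-lesional and 23.5% to 30.5% in the other 3 lesional libraries. *Scd1* in lesional replicate 11 was 1.21 times the WT mean, and *Scd3* 0.176 times. This comparison was made after the values were seen and carries no test. The same library had the lowest adipocyte and muscle sums, and their part in the low *Scd3* value was not tested.

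*Elovl3* had 21.3, 11.4, 12.6, 11.8 and 9.78 CPM in WT replicates 1, 4, 7, 10 and 13. Non-lesional libraries had 22.7, 9.78, 12.8, 20.8 and 11.8 CPM, and lesional libraries had 36.7, 8.22, 14.01, 71.6 and 21.4 CPM. Lesional replicates 2 and 11 were the highest of all 15 libraries, at 2.74 and 5.36 times the WT mean, while lesional replicate 5 was the lowest. The counting intervals of these high values, 29.1 to 45.6 CPM and 60.4 to 84.3 CPM, lay above that of WT replicate 1, the highest WT library (16.0 to 27.7 CPM). Lesional libraries had 30.4 ± 25.4 CPM and WT libraries 13.4 ± 4.5 CPM (SD, n = 5). This is 1.18 on the log2 scale (SE 0.51, unadjusted p = 0.0394, adjusted p = 0.926 in the edgeR quasi-likelihood fit). Without lesional replicate 11 the value was 0.59 (unadjusted p = 0.135 in edgeR), and without lesional replicates 2 and 11 it was 0.11. Without WT replicate 1 it was 1.42. The unadjusted p was under 0.05 in 4 of the 10 edgeR fits without 1 library, and it was 0.075 without the filter on low counts. With the adipocyte score of each library as a covariate it was 0.79 (unadjusted p = 0.061 in edgeR), and with the skeletal muscle score it was 0.66 (unadjusted p = 0.0497 in edgeR). The Y-linked score gave 1.05 (unadjusted p = 0.00925 in edgeR) and the hair follicle score 1.39 (unadjusted p = 0.0331 in edgeR). Non-lesional libraries had 15.6 ± 5.8 CPM (SD, n = 5), and the log2 fold change relative to WT was 0.22 (SE 0.27), or 0.042 without non-lesional replicate 3 and 0.46 without WT replicate 1.

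**Figure D2:**
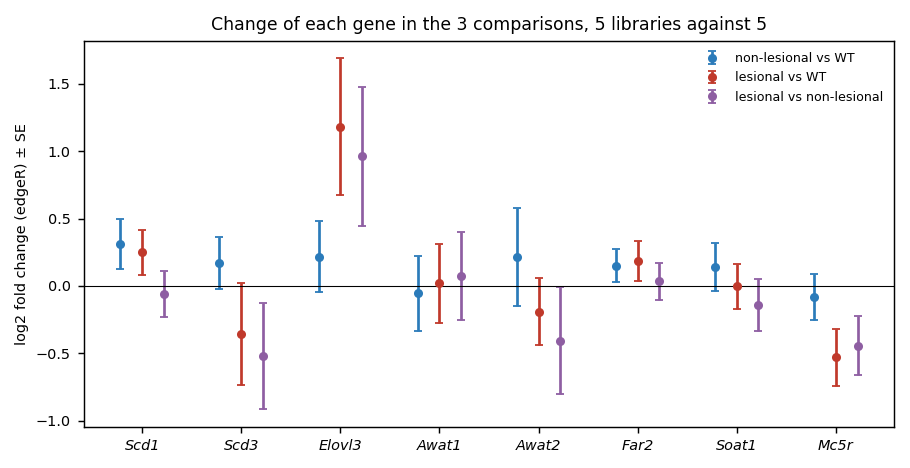
Log2 fold change of each gene from edgeR (vertical axis) with its SE in non-lesional against WT, lesional against WT and lesional against non-lesional libraries, 5 against 5. The largest values are those of *Elovl3* in lesional libraries (1.18 and 0.96), which also have the widest errors (0.51 and 0.51).

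*Mc5r*, the only gene of the 8 that encodes a receptor, had 63.8, 51.2, 56.1, 46.9 and 36.5 CPM in the WT replicates. It had 49.4, 55.7, 60.2, 42.5 and 32.4 CPM in the non-lesional and 28.1, 52.4, 39.2, 28.4 and 28.2 CPM in the lesional replicates. Lesional replicates 2, 11 and 14 were the lowest of all 15 libraries, below WT replicate 13 and non-lesional replicate 15, while lesional replicate 5 lay within the WT range. The means were 35.2 ± 10.7 CPM in lesional, 48.0 ± 11.01 CPM in non-lesional and 50.9 ± 10.2 CPM in WT libraries (SD, n = 5). Lesional minus WT was -0.53 on the log2 scale (SE 0.21, unadjusted p = 0.0259, adjusted p = 0.926 in the edgeR quasi-likelihood fit). Leaving out each library in turn gave -0.71 (without lesional replicate 5) to -0.43 (without WT replicate 1), and the unadjusted p was under 0.05 in 6 of these 10 fits. Against non-lesional libraries the lesional change was -0.44 (SE 0.22, unadjusted p = 0.0609, adjusted p = 0.973 from edgeR), and non-lesional and WT libraries did not differ beyond their spread (-0.081, SE 0.17). Of 8 other genes of the melanocortin system in the table (the hormone precursor gene *Pomc*, the receptor genes *Mc1r*, *Mc2r*, *Mc3r* and *Mc4r*, the accessory protein genes *Mrap* and *Mrap2*, and the antagonist gene *Agrp*), 1, *Mrap*, passed the filter. Its log2 fold changes were 0.51 (SE 0.39) for non-lesional and -0.084 (SE 0.47) for lesional skin relative to WT, and -0.59 (SE 0.42) for lesional relative to non-lesional skin.

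In lesional replicates 2 and 11, with high counts of inflamed-epidermis genes, *Mc5r* had 28.1 and 28.4 CPM. In the other 3 lesional libraries it had 52.4 (replicate 5), 39.2 (replicate 8) and 28.2 CPM (replicate 14). Without lesional replicates 2 and 11 the log2 fold change relative to WT was -0.36 (unadjusted p = 0.127 in edgeR), and without lesional replicate 14 it was -0.46 (unadjusted p = 0.0553 in edgeR). *Elovl3* was highest in the library with the highest inflamed-epidermis sum in each group, namely WT replicate 1 (1308 CPM), non-lesional replicate 3 (1211 CPM) and lesional replicate 11. This was seen after the values were known. WT replicate 1 and lesional replicate 11 were also high in *Xist*, as was non-lesional replicate 12, with 20.8 CPM of *Elovl3* against 22.7 CPM in non-lesional replicate 3. WT replicate 1 also had the highest hair follicle sum (1405 CPM). The part of inflamed epidermis in the *Elovl3* and *Mc5r* values was not tested.

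**Figure D3:**
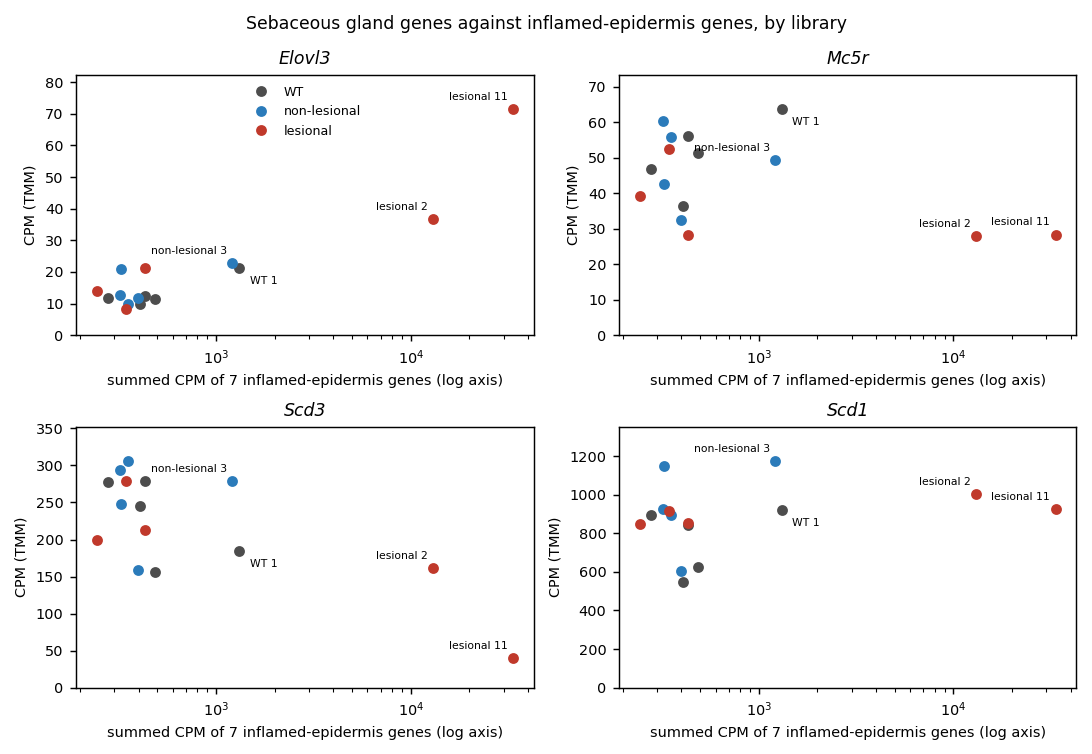
CPM of *Elovl3*, *Mc5r*, *Scd3* and *Scd1* (vertical axes, linear) in each library against the summed CPM of 7 genes of inflamed epidermis (horizontal log axis), colored by group. Lesional replicates 2 and 11 lie apart on the horizontal axis (13034 and 33477 CPM), with the highest *Elovl3* values (36.7 and 71.6 CPM) and 2 of the 3 lowest *Mc5r* values, while *Scd1* is within the range of the other libraries.

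The wax ester genes did not differ between groups beyond their spread. *Awat1* had 94.0, 54.2, 91.5, 56.6 and 50.4 CPM in WT, 107, 50.6, 78.3, 58.9 and 39.4 CPM in non-lesional and 117, 48.8, 73.3, 74.1 and 36.5 CPM in lesional libraries. The means were 69.3 ± 21.5, 66.8 ± 26.5 and 70.0 ± 30.9 CPM (SD, n = 5), and the range was narrowest in WT and widest in lesional libraries. Its log2 fold changes relative to WT were -0.053 (SE 0.28) for non-lesional and 0.018 (SE 0.30) for lesional skin, and their direction changed with single libraries. *Awat2* had 18.2, 11.4, 19.7, 20.3 and 15.4 CPM in WT, 34.3, 28.1, 16.5, 14.8 and 5.25 CPM in non-lesional and 21.7, 18.5, 11.6, 10.9 and 11.7 CPM in lesional libraries. Its non-lesional libraries spread widest, with a coefficient of variation of 57.9% against 21.6% in WT, where counting alone gives 14.7% and 15.6%. Non-lesional replicate 3 was the highest and non-lesional replicate 15, with 12 counts, the lowest of all 15 libraries. The log2 fold changes of *Awat2* were 0.22 (SE 0.36) for non-lesional and -0.19 (SE 0.25) for lesional skin relative to WT, and -0.41 (SE 0.40) for lesional relative to non-lesional skin. The last was -0.11 without non-lesional replicate 3 and -0.65 without non-lesional replicate 15, and lesional relative to WT was -0.37 without lesional replicate 2 and -0.10 without lesional replicate 11.

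*Far2* varied least, from 161 CPM in WT replicate 4 to 273 CPM in non-lesional replicate 3. Its means were 213 ± 34 CPM in WT, 237 ± 34 CPM in non-lesional and 242 ± 30 CPM in lesional libraries (SD, n = 5). Relative to WT the log2 fold changes were 0.15 (SE 0.12) and 0.18 (SE 0.15), and that between lesional and non-lesional libraries was 0.034 (SE 0.14). *Soat1*, the sterol ester gene, had 199, 149, 172, 154 and 124 CPM in WT, 230, 163, 218, 154 and 113 CPM in non-lesional and 212, 168, 147, 130 and 139 CPM in lesional libraries. The means of 159 ± 28, 176 ± 48 and 159 ± 33 CPM (SD, n = 5) overlapped, with log2 fold changes of 0.14 (SE 0.18) and -0.002 (SE 0.17) against WT. The first was 0.020 without non-lesional replicate 3 and 0.26 without non-lesional replicate 15.

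In non-lesional skin, 2 libraries were at or near the extremes for several of the genes. Non-lesional replicate 3 had the highest *Scd1*, *Awat2*, *Far2* and *Soat1* of all 15 libraries and the second highest *Awat1*. Non-lesional replicate 15 had the lowest *Awat2* and *Soat1* and the second lowest *Scd1*, *Awat1* and *Far2*. The summed CPM of the 8 genes ran from 1164 in non-lesional replicate 15 to 2171 in non-lesional replicate 3. Both libraries belong to the same group, so that the range within non-lesional skin exceeded that of WT (1219 to 1733 CPM) and of lesional libraries (1512 to 1852 CPM).

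Of the 28 pairs of the 8 genes, 22 had a positive Pearson correlation of log2 CPM over the 15 libraries (median 0.47), and 26 did over 13 libraries without lesional replicates 2 and 11 (median 0.52). These correlations are descriptions without a test, since libraries share their scaling and may share mice. *Awat1* and *Soat1* had r = 0.76 (Spearman's rho = 0.71) over 15 libraries and r = 0.80 over 13. *Awat2* and *Soat1* had r = 0.75 (rho = 0.76) and r = 0.73, while *Awat1* and *Awat2* had r = 0.53 (rho = 0.44) and r = 0.56. *Scd3* and *Elovl3* had r = -0.75 (rho = -0.37) over 15 libraries, which rested on the lesional replicates 2 and 11, since it was -0.16 over the other 13. *Scd1* and *Scd3* had r = 0.10 (rho = 0.13) over 15 libraries and 0.54 over 13.

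Of 13453 other genes, the 10 whose log2 CPM was most like the mean of the 8 over the 15 libraries were *Pank1*, *Cidea*, *Ckap5*, *Elovl6*, *Rpl9*, *Selenoi*, *Slc25a20*, *Fbxl18*, *Agpat3* and *Ces4a*. Their Pearson correlations ran from 0.80 (*Ces4a*) to 0.91 (*Pank1*), where the median of all genes was 0.004 and the 99th percentile 0.63. *Pank1* encodes a pantothenate kinase of coenzyme A synthesis, *Cidea* a lipid droplet protein, *Elovl6* an elongase of saturated and monounsaturated acyl chains, and *Agpat3* an acyltransferase of phospholipid and triglyceride synthesis. *Pank1* had 143 CPM in non-lesional replicate 3 and 77.5 CPM in non-lesional replicate 15. *Elovl6* had 1009 and 408 CPM in the same libraries. Without lesional replicates 2 and 11 the correlations of these 10 genes were 0.78 to 0.91.

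**Figure D4:**
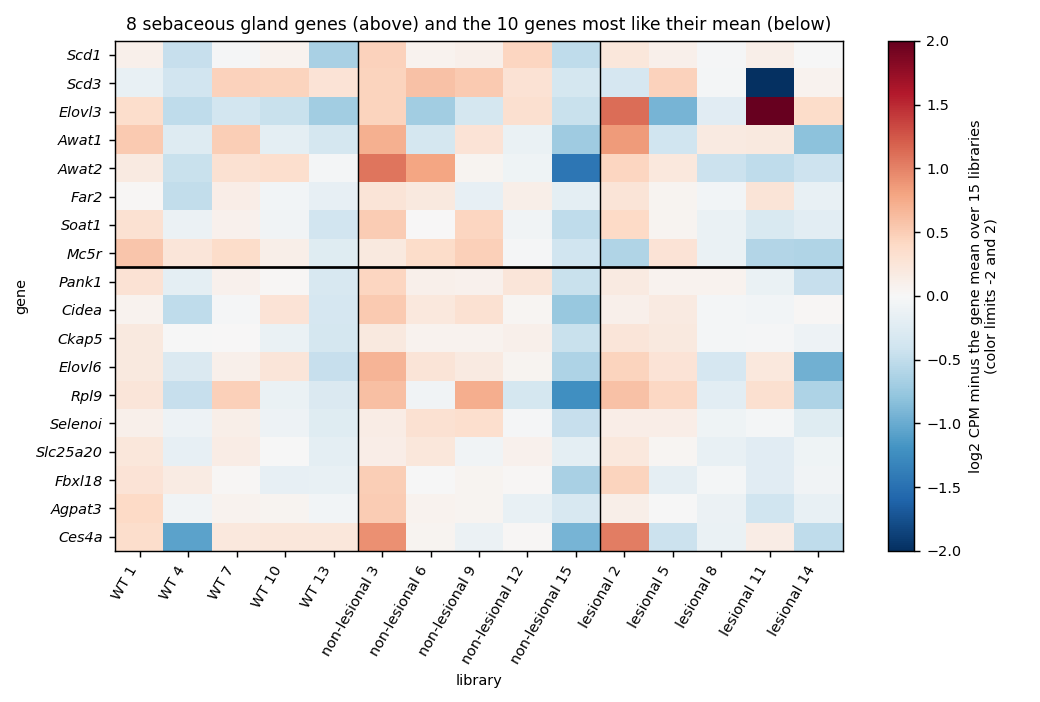
Log2 CPM of each gene (rows) minus its mean over the 15 libraries (columns), for the 8 sebaceous gland genes above the line and the 10 genes most like their mean below it; colors are limited at -2 and 2. Most rows are high in non-lesional replicate 3 and low in non-lesional replicate 15, and the rows of *Scd3* and *Elovl3* part in lesional replicate 11.

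Other genes of the same pathways were compared by lists. Of 17 further genes of desaturation and elongation, 15 were tested, and 0 had an unadjusted p under 0.05 from edgeR's test in any of the 3 comparisons. *Scd2*, the desaturase gene next to *Scd3*, had 58.1 ± 21.2 CPM in WT, 71.4 ± 5.5 CPM in non-lesional and 72.5 ± 14.7 CPM in lesional libraries (SD, n = 5). Its change in non-lesional against WT libraries was 0.30 (SE 0.19). *Scd4* had at most 2 counts in any library. *Elovl5*, an elongase of polyunsaturated chains, had log2 fold changes of 0.28 (SE 0.17) for non-lesional skin relative to WT and -0.45 (SE 0.21, unadjusted p = 0.0533 from edgeR) for lesional relative to non-lesional skin. Of 13 genes that form glycerolipid, wax or sterol esters, 10 were tested and 0 had an unadjusted p under 0.05 in any comparison. *Dgat1*, which completes triglyceride synthesis, had log2 fold changes of 0.25 (SE 0.15) for non-lesional and 0.38 (SE 0.19) for lesional skin relative to WT.

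Of the genes that supply fatty acids, none had an adjusted p under 0.05 from edgeR with the filter on low counts, and all 7 had positive log2 fold changes in both comparisons with WT. Of 7 genes, 4 had an unadjusted p under 0.05 in non-lesional libraries against WT (*Fasn*, *Acaca*, *Acly* and *Acss2*), all higher, beside 1.85% of all genes in that direction. In lesional libraries 3 did (*Acaca*, *Fasn* and *Acly*), all higher, beside 3.24%. *Fasn*, which encodes fatty acid synthase, had 131 ± 33 CPM in WT, 212 ± 40 CPM in non-lesional and 193 ± 47 CPM in lesional libraries (SD, n = 5). The log2 fold changes were 0.69 (SE 0.16, unadjusted p = 0.00054, adjusted p = 1) and 0.56 (SE 0.20, unadjusted p = 0.0157, adjusted p = 0.926) in the edgeR quasi-likelihood fits. Without the filter on low counts, the adjusted p of *Fasn* in non-lesional skin was 2.48e-05 in edgeR, where 18 of 27255 genes (0.066%) were called. The log2 fold change of *Fasn* was 0.69 in that fit too. In the 10 edgeR fits of this comparison without 1 library, 0 genes of the pathway lists were called. The lowest non-lesional *Fasn* value (174 CPM) lay below the highest WT value (177 CPM). The median log2 fold change of the 7 genes in non-lesional libraries was 0.48, beside 0.16 for the 8 sebaceous gland genes, and the difference between these lists was not tested. The comparisons with WT share the WT libraries.

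Of 12 marker genes and regulators of sebocytes, all were present in the table, and 12, 11 and 11 were tested in the 3 comparisons. In non-lesional libraries 0 had an unadjusted p under 0.05 and the median log2 fold change against WT was 0.12. In lesional libraries 1 did, beside 3.24% of all genes higher, *Fabp5*, a fatty acid binding protein gene also expressed in keratinocytes, with 226 and 653 CPM in lesional replicates 2 and 11 and 22.1 to 26.3 CPM in the other 3. The median of the 11 genes was -0.12. For *Krt79*, a keratin gene of the sebaceous duct and upper hair follicle, the values of the same libraries were 545 and 781 CPM, while WT libraries ranged from 91.4 to 243 CPM (log2 fold change 1.01, SE 0.50). *Cidea*, a marker of mature sebocytes and of brown fat, had 70.1 to 82.7 CPM in lesional and 50.7 to 87.8 CPM in WT libraries. Of the brown fat genes listed, *Ucp1*, which defines brown fat, had at most 2 counts in any library. The others were present, with group means of 30.2 to 38.9 CPM (*Cpt1b*), 17.4 to 21.0 CPM (*Ppargc1a*) and 3.90 to 5.98 CPM (*Dio2*). The part of brown fat in the *Cidea* values was not tested. *Mgst1*, a glutathione transferase gene high in sebocytes, was the 1 gene with an unadjusted p under 0.05 between lesional and non-lesional skin in edgeR's quasi-likelihood test (-0.50, SE 0.21, unadjusted p = 0.0293, adjusted p = 0.973), beside 1.33% of all genes lower. Lesional replicate 14 had the lowest level of all 15 libraries for *Mgst1* (44.3 CPM), for the sebocyte regulator *Pparg* (3 counts, 1.46 CPM) and for *Lrig1* (12.6 CPM), a marker of stem cells above the follicle bulge. It was also among the 3 lowest libraries for *Mc5r*. The other 14 libraries had 59.0 to 151 CPM of *Mgst1*, 4.93 to 26.4 CPM of *Pparg* and 32.4 to 51.9 CPM of *Lrig1*. These genes were singled out after their values were seen, and their part in the *Mc5r* values was not tested.

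**Figure D5:**
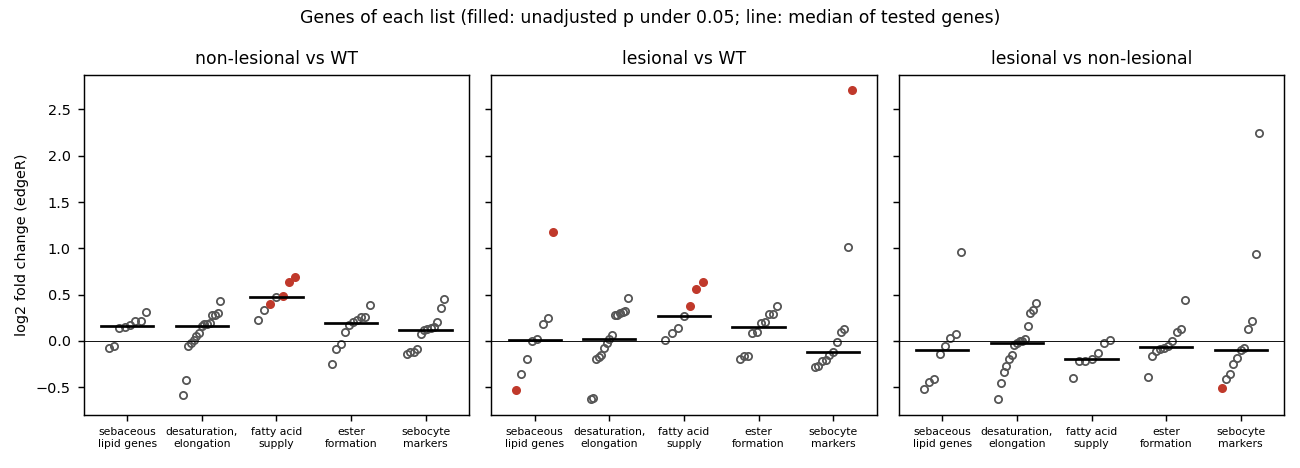
Log2 fold changes from edgeR (vertical axis) of the tested genes of 5 lists in each comparison; each point is a gene, filled where the unadjusted p was under 0.05, and lines are medians. Genes of fatty acid supply stand higher than 0 in both comparisons with WT (medians 0.48 and 0.26), while the medians of the sebaceous gland lipid genes are 0.16 and 0.01; the high points of the sebocyte markers in lesional libraries are *Fabp5* and *Krt79*.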

How the data were processed

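RNA of 15 skin samples was sequenced from its 3′ ends (QuantSeq, forward). The authors clipped adaptors with cutadapt 2.10, mapped reads to GRCm38 with subread-align, removed matches of low mapping quality and counted primary matches over exons with featureCounts 2.0.1, so the deposited counts are whole reads per gene, not normalized, with a read over several genes counted for each. The deposited CPM are these counts scaled to a library of 1000000 and were not used for tests. The command sets no strand option. The annotation release is not given in the sources used here, and the methods are not clear on the RNA integrity cutoff of the samples. Totals per library bound the precision: a gene near 12 counts carries a large counting error. The 92 spike-in rows, with 0 counts, were left out.

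Here, each pair of groups was fitted with edgeR 4.0.16 in R 4.3.3 (TMM, filterByExpr, robust quasi-likelihood F-test), adjusted over all genes tested by Benjamini-Hochberg at 0.05. The SE was taken as the absolute log2 fold change over the square root of F. Log2 CPM used a prior count of 2. Members and lists were chosen with earlier results of these data known. Genes named are the members, at most 3 per pathway list and comparison by p, and the 10 most correlated genes. Other genes of the lists, and *Otulin* and genes that overlap members, were named after their values were seen. *Asip* and *Krt85* of the lists were not analysed here. Alternatives were DESeq2 1.42.0, other scalings, filters and samples, covariates, and leaving out libraries.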

Additional observations from a re-analysis of the deposited data

Results flagged for a closer look

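Dixon's gap test, at its 95% critical value of 0.71 for 5 libraries, was run on 162 sets, each a gene or list in 1 group, which covered the 8 genes, the other named genes and the summed lists. Chance gives about 1 in 20 such groups, and 11 were found. Only 1 of the 24 groups of the 8 genes was among them, *Elovl3* in WT replicate 1, at 21.3 CPM against 9.78 to 12.6 CPM in the other WT libraries. The same library was apart for *Agpat3* (123 CPM against 89.2 to 98.7), for the summed hair follicle genes (1405 CPM against 67.6 to 187) and for the summed inflamed-epidermis genes (1308 CPM against 278 to 487). Non-lesional replicate 3 had an inflamed-epidermis sum of 1211 CPM against 320 to 398 CPM in its group.

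The other values were of single genes. *Acaca* had 54.5 CPM in lesional replicate 14 against 36.7 to 39.3 CPM, *Far1* had 19.5 CPM in the same library against 45.6 to 53.7 CPM, and *Fbxl18* had 48.9 CPM in lesional replicate 2 against 30.3 to 34.8 CPM. *Dgat1* had 31.3 CPM in non-lesional replicate 9 against 40.5 to 44.1 CPM, *Ckap5* 28.9 CPM in non-lesional replicate 15 against 41.6 to 45.4 CPM, and *Ces4a* 11.8 CPM in WT replicate 4 against 30.1 to 33.3 CPM.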

How the results depend on the processing

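No alternative gave an adjusted p under 0.05 for any of the 8 genes. Of 520 values of single genes under the alternatives, 473 kept their direction and 47 changed it, the largest of these being -0.39, and none of the 47 had an unadjusted p under 0.05. No paired analysis was run, because the groups share no replicate numbers and no source used here names the mouse of a library. Lesional and non-lesional libraries with consecutive numbers (2 and 3, 5 and 6, 8 and 9, 11 and 12, 14 and 15) were alike in *Xist* and Y-linked counts, but nothing says that they are from 1 mouse, and they were not fitted as pairs. The number of genes with an unadjusted p under 0.05 in non-lesional against WT libraries rose from 0 to 1 (*Scd1*) without a filter on low counts and with the adipocyte score as covariate, where 4.53% and 3.59% of all genes passed. In lesional against WT libraries it fell from 2 to 1 without the filter and with the adipocyte or the hair follicle score as covariate, and to 0 without lesional replicates 2 and 11 (4.78%, 4.3%, 3.51% and 2.94% of all genes). Between lesional and non-lesional libraries it rose from 0 to 1 with DESeq2, without the filter and with all 15 libraries in 1 fit (2.98%, 4.49% and 5.54% of all genes). Fits without 1 replicate gave 0 to 1, 0 to 2 and 0 to 2 genes in these 3 comparisons, where 2.37% to 4.46%, 2.57% to 7.6% and 2.38% to 7.64% of all genes passed. The fits with 2 genes, without lesional replicate 5 or 8, had shares of 6.57% to 7.64%. Without the filter, 1 gene of the pathway lists was called in non-lesional against WT libraries, *Fasn* (adjusted p = 2.48e-05 in edgeR), beside 18 of all 27255 genes. The cause of these shifts was not tested.

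In non-lesional against WT libraries, *Awat1* became 0.154 and *Mc5r* 0.027 with the adipocyte score, and *Awat1* 0.043 with the hair follicle score. Leaving out replicates gave -0.29 to 0.086 for *Awat1*, -0.074 to 0.46 for *Awat2* and -0.18 to 0.031 for *Mc5r*. In lesional against WT libraries, *Soat1* became 0.004 with DESeq2, 0.002 with its size factors, 0.005 with Y-linked expression, 0.079 with the hair follicle score and 0.008 with the skeletal muscle score. *Awat1* became -0.014 with upper quartile scaling, -0.111 with the adipocyte score, -0.092 with the skeletal muscle score and -0.391 without lesional replicates 2 and 11, where *Scd3* was 0.005. Leaving out replicates gave -0.25 to 0.18 for *Awat1* and -0.13 to 0.099 for *Soat1*. Between lesional and non-lesional libraries, *Far2* became -0.005 with upper quartile scaling, -0.066 with the adipocyte score, -0.008 with the muscle score and -0.099 without lesional replicates 2 and 11. *Awat1* became -0.315, -0.028 and -0.331 with the last 3 of these, and *Elovl3* -0.098 without lesional replicates 2 and 11. Leaving out replicates gave -0.19 to 0.32 for *Awat1*, -0.024 to 0.10 for *Far2* and -0.19 to 0.041 for *Scd1*. Counting alone gives coefficients of variation of 12.5% to 17.5% for *Elovl3* and 14.7% to 17.7% for *Awat2*, the genes with fewest counts, below their spread between libraries in each group.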
